A study of Mus musculus with 6 samples.

Results

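The 10 genes described here are macrophage receptors and genes that act with them, measured in visceral white adipose tissue (viWAT) of obese mice. They are the receptors Adgre1, Csf1r, Mertk, Fcgr1, Fcgr3, Msr1 and Marco, the Fc receptor gamma chain Fcer1g, the growth factor Csf1 and the transcription factor Spi1. They were chosen by name, as macrophage receptors and genes of the CSF1 axis, and are 10 of the 19938 genes with an annotated probeset on the array. Of them, 9 passed the filter on low values, which keeps genes whose log2 intensity exceeds 7 on 3 or more arrays, and were tested among 11024 genes. Marco did not pass.

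Hmox1f/f PdgfraCre mice carry loxP sites around exon 2 of Hmox1, which encodes the heme-degrading enzyme HO-1, and a Cre recombinase driven by the Pdgfra promoter. Their Hmox1f/f littermates carry the same floxed alleles without Cre, so effects of Cre and of losing Hmox1 cannot be told apart. All mice were on the C57BL/6J background and received a high fat diet (HFD) for 8 weeks from 6 weeks of age. RNA was hybridised to 3 Affymetrix gene arrays per genotype, numbered 1 to 3 for Hmox1f/f PdgfraCre and 4 to 6 for Hmox1f/f, and each array holds a pool of 2 mice. The material is labelled both as viWAT and as bead-purified adipose precursors (APs), a purification that the methods describe as depleting CD45+ and CD31+ cells. By Q-PCR, the paper found low expression of Adipoq and Cd68 in its bead-purified APs. On these arrays Adipoq had log2 intensities of 12.74 to 13.10 and Cd68 of 12.36 to 13.09. Which label holds was not tested.

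Macrophages depend on the receptor tyrosine kinase CSF1R, which binds the ligands CSF1 and IL-34 and keeps the cells alive, and on PU.1, the product of Spi1, which opens and activates many macrophage genes, those of CSF1R and Fc receptors among them. Activating Fc receptors bind the constant part of antibodies and need the FcR gamma chain, which brings them to the membrane and carries the tyrosine motif (ITAM) that recruits the kinase SYK. ADGRE1 is the antigen by which mouse macrophages are commonly recognised, MERTK takes up dying cells, and the class A scavenger receptors MSR1 and MARCO bind modified lipoproteins and bacteria. In obese fat, macrophages gather around adipocytes and take up lipid.

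Promoter windows of members whose expression is described below are shown because PU.1 is itself one of the 10 genes. RefSeq entries on GRCm38.p6 were read for 6 members, Csf1, Mertk, Fcgr1, Fcgr3, Fcer1g and Marco. Those of the other 4, Adgre1, Csf1r, Spi1 and Msr1, were not used, and all of these are among the 7 lower genes described below. The 4 windows printed here are of the ligand and the 3 members of the activating Fc receptor complex. Each is the 250 bases before the annotated start, all on the minus strand and read 5′ to 3′, and capitals mark the core of the PU.1 motif, GAGGAA or its reverse complement TTCCTC. The windows are chr3:96293970-96294219 for Fcgr1, chr1:171059404-171059653 for Fcgr3, chr1:171234350-171234599 for Fcer1g and chr3:107760470-107760719 for Csf1.
Fcgr1: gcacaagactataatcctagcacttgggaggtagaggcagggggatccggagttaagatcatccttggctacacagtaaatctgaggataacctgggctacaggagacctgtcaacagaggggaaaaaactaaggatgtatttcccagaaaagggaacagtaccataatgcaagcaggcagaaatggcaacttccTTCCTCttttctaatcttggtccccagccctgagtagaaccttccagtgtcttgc
Fcgr3: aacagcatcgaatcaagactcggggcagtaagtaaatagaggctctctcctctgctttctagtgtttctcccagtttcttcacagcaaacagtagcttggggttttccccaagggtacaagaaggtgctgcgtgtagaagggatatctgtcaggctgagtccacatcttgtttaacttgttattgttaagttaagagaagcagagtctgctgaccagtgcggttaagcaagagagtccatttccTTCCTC
Fcer1g: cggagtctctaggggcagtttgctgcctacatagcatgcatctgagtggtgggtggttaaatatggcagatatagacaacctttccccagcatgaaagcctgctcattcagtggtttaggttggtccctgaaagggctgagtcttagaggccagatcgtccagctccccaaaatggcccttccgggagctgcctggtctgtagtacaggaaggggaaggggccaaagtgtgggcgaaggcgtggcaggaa
Csf1: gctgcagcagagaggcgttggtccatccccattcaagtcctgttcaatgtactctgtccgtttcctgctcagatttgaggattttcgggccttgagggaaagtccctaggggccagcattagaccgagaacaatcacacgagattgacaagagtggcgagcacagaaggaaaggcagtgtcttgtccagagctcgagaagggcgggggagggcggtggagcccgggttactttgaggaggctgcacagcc

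The 6-base core was found once in the windows of Fcgr1, Fcgr3 and Marco, at 55, 6 and 146 bases before the start, and not in those of Csf1, Mertk and Fcer1g. It occurs in 23.3% of 32851 promoter windows of this length, searched on both strands. The longer form GAGGAAGT, which contains the core and is found in 2.44% of windows, was in none of the 6. For Fcgr3 the RefSeq table lists 2 starts and the first is used here. The longest run of letters that the windows of Fcgr1 and Fcgr3 share is TTCCTTCCTC, which overlaps the core, begins 59 bases before the start of Fcgr1 and 10 bases before that of Fcgr3, and is present in 132 windows (0.402%) on either strand. It was picked after the windows had been compared. These matches describe letters and no binding was measured.

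The targeted gene Hmox1 was looked at beside the labels. It had log2 intensities of 11.25, 11.36 and 10.74 in Hmox1f/f PdgfraCre, against 11.90, 11.63 and 12.32 in Hmox1f/f, with a difference of -0.83 ± 0.21 (SE, limma, adjusted p = 0.20) and no overlap. Probes outside exon 2 would still detect a transcript, and the positions of the probes were not analysed here. Among the Cre arrays, Hmox1 was highest on array 2 and lowest on array 3, as were 6 of the 7 lower genes described below. In a mixture of cells its difference cannot by itself check the labels, and the part of macrophages in it was not tested. Pdgfra, the gene whose promoter drives Cre, had log2 intensities of 10.24, 10.05 and 10.23 in Hmox1f/f PdgfraCre, against 10.31, 10.36 and 10.34 in Hmox1f/f, a difference of -0.17 ± 0.08 (SE, limma, adjusted p = 0.323). Arrays 1 and 6 stood apart in genes of the epididymis, an organ beside this fat pad, whose summed intensity was 8948, 416 and 842 in Hmox1f/f PdgfraCre, against 411, 644 and 3544 in Hmox1f/f. Adam7, the 1 gene of that list that passed the filter, was also raised on array 3. It had log2 intensities of 11.68, 5.43 and 8.93 in Hmox1f/f PdgfraCre, against 5.49, 5.52 and 7.85 in Hmox1f/f. Values without arrays 1 and 6 are given at the end.

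Of the 9 members tested, 7 were lower in Hmox1f/f PdgfraCre than in Hmox1f/f at an unadjusted p under 0.05. They were Adgre1, Csf1r, Fcgr1, Fcgr3, Fcer1g, Spi1 and Msr1, at 1.32 to 1.62-fold lower intensity. Over all genes tested, 13.8% were lower at that threshold and 3.82% were higher, and 0 members were higher. The ligand Csf1 and the receptor Mertk had differences near 0. In 6 of the 9, every Hmox1f/f PdgfraCre array lay below every Hmox1f/f array, which 21.2% of all genes tested also showed. The median difference of the 9 was -0.42 on the log2 scale, beside a median of -0.03 over all genes, and all 9 were lower by any amount, as were 57.4% of all genes. After Benjamini-Hochberg adjustment over all genes, limma called 0 members and 0% of all genes at 0.05, and the adjusted p of the 7 was between 0.20 and 0.238. The p-values set each difference against the spread between pools of mice, with the variance moderated over all genes tested. In RNA from a mixture of cells, fewer macrophages and less of each RNA per macrophage cannot be told apart.

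**Figure D1:**
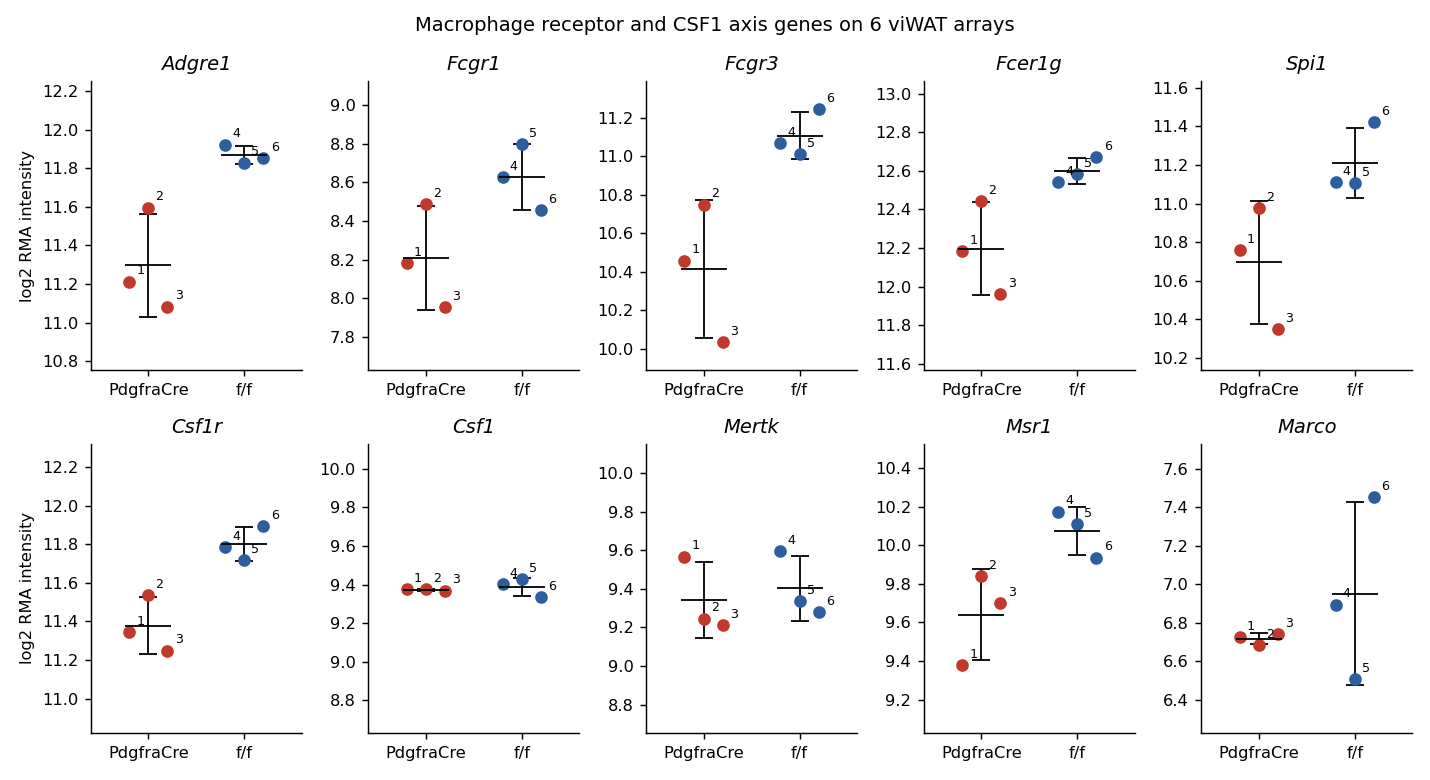
Log2 RMA intensity of the 10 genes on each array, Hmox1f/f PdgfraCre (red, arrays 1 to 3) left of Hmox1f/f (blue, arrays 4 to 6), with lines and bars for the mean and SD of 3 pools. The axes start at different values and have the same span. Csf1 stayed within 0.095 log2 units over all 6 arrays, and in 6 genes the colours do not overlap.

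Csf1, the macrophage growth factor, was the steadiest of the 10 genes. Its intensity was 664, 664 and 661 in Hmox1f/f PdgfraCre, against 676, 689 and 645 in Hmox1f/f. All 3 Hmox1f/f PdgfraCre values lay inside the Hmox1f/f range. The log2 difference was -0.01 ± 0.07 (SE, limma, adjusted p = 0.920), with a 95% confidence interval of -0.17 to 0.15, which does not reach the value of its receptor given next. The sign of so small a difference turned under 3 rescalings of the arrays and when array 5 was left out.

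Csf1r, which encodes the receptor for Csf1 and Il34, was lower in every Hmox1f/f PdgfraCre pool. It had intensities of 2599, 2974 and 2432 in Hmox1f/f PdgfraCre, against 3534, 3373 and 3809 in Hmox1f/f. Array 3 was lowest and array 2 highest of the Cre pools, and the closest pair of arrays of different genotype was 0.18 log2 units apart. The mean was 11.38 ± 0.15 in Hmox1f/f PdgfraCre and 11.80 ± 0.09 in Hmox1f/f (log2, SD, n = 3 each), a difference of -0.42 ± 0.10 (SE, limma, adjusted p = 0.20) with a 95% confidence interval of -0.66 to -0.19. It was larger than the spread between pools of either genotype but did not pass the adjusted threshold.

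The ligand was level where its receptor was lower, and their ratio was computed to set the differences against each other. The log2 ratio of Csf1 to Csf1r lay between -2.16 and -1.88 in Hmox1f/f PdgfraCre and between -2.56 and -2.29 in Hmox1f/f, a difference of 0.41. Only the difference between genotypes has a meaning here, since probes of different genes are not on a common scale. Il34, the second ligand of CSF1R, had log2 intensities of 8.12, 7.94 and 7.85 in Hmox1f/f PdgfraCre, against 8.10, 7.89 and 7.83 in Hmox1f/f, a difference of 0.03 ± 0.11 (SE, limma, adjusted p = 0.890) with overlapping genotypes. The log2 ratio of Il34 to Csf1r was 0.46 higher in Hmox1f/f PdgfraCre than in Hmox1f/f. Of 3 such ratios computed, chosen after the values were seen, each had an exact two-sided permutation p of 0.1, before and after Benjamini-Hochberg adjustment over the 3, and 0.1 is the smallest p that 3 arrays against 3 allow.

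Spi1, which encodes PU.1, had intensities of 1731, 2016 and 1305 in Hmox1f/f PdgfraCre, against 2211, 2202 and 2742 in Hmox1f/f. The lowest value was on array 3 and the highest on array 6, and the genotypes did not overlap. The mean was 10.69 ± 0.32 in Hmox1f/f PdgfraCre and 11.21 ± 0.18 in Hmox1f/f (log2, SD, n = 3 each), with a difference of -0.52 ± 0.17 (SE, limma, adjusted p = 0.218). Without array 3 the difference was -0.34 with an unadjusted limma p of 0.0357, and without array 6 it was -0.41 with an unadjusted limma p of 0.0592.

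Fcgr3 had the largest difference of the 10 genes. This low-affinity activating receptor for IgG had intensities of 1407, 1721 and 1049 in Hmox1f/f PdgfraCre, against 2146, 2061 and 2426 in Hmox1f/f. Every Cre pool was below every control pool, by at least 0.26 log2 units, and array 3 stood lowest. The mean was 10.41 ± 0.36 in Hmox1f/f PdgfraCre and 11.11 ± 0.12 in Hmox1f/f (log2, SD, n = 3 each), which is 1.62-fold lower, with a difference of -0.69 ± 0.18 (SE, limma, adjusted p = 0.20) and a 95% confidence interval of -1.11 to -0.28. Of all genes tested, 0.735% had a lower value of the difference. Fcgr3 shares sequence with Fcgr2b and with Fcgr4, another activating IgG receptor, which is not among the 10 genes and had a larger difference of -0.82 ± 0.19 (SE, limma, adjusted p = 0.20) without overlap, and how far their probes cross-detect one another was not analysed here.

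Fcgr1, the high-affinity IgG receptor, had intensities of 290, 359 and 248 in Hmox1f/f PdgfraCre, against 396, 445 and 351 in Hmox1f/f. Array 2 of the Cre pools was slightly above array 6 of the controls, so the genotypes overlapped. The difference was -0.42 ± 0.15 (SE, limma, adjusted p = 0.238), 1.34-fold lower. Its unadjusted p passed 0.05 in 11 of 17 other settings, and leaving out array 1, 3, 4 or 5 put it between 0.0616 and 0.0916.

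Fcer1g, the shared gamma chain through which both receptors signal, had intensities of 4647, 5569 and 3987 in Hmox1f/f PdgfraCre, against 5958, 6131 and 6522 in Hmox1f/f. Arrays 3, 1 and 2 lay below all control arrays, array 2 by only 0.097 log2 units. The difference was -0.40 ± 0.13 (SE, limma, adjusted p = 0.210), 1.32-fold lower, with means of 12.20 ± 0.24 in Hmox1f/f PdgfraCre and 12.60 ± 0.07 in Hmox1f/f (log2, SD, n = 3 each). The chain lay less far below the control mean than Fcgr3 on each Cre array, and the log2 ratio of Fcer1g to Fcgr3 was 1.72, 1.69 and 1.93 in Hmox1f/f PdgfraCre, against 1.47, 1.57 and 1.43 in Hmox1f/f, the third of the 3 ratios tested above.

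Adgre1, an adhesion G protein-coupled receptor and the standard antigen for mouse macrophages, had intensities of 2372, 3096 and 2168 in Hmox1f/f PdgfraCre, against 3884, 3641 and 3704 in Hmox1f/f. The control pools were nearly identical, and the Cre pools were below them and farther apart, with array 2 closest. The mean was 11.30 ± 0.27 in Hmox1f/f PdgfraCre and 11.87 ± 0.05 in Hmox1f/f (log2, SD, n = 3 each), 1.49-fold lower, with a difference of -0.57 ± 0.13 (SE, limma, adjusted p = 0.20) and a 95% confidence interval of -0.89 to -0.26. Leaving out single arrays moved the difference between -0.72 and -0.47.

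Mertk, a receptor of the TAM family (TYRO3, AXL, MERTK) that takes up dying cells through the bridging ligands GAS6 and protein S, had intensities of 759, 607 and 593 in Hmox1f/f PdgfraCre, against 773, 647 and 621 in Hmox1f/f. Array 1 and array 4 were high, 1 of each genotype, and the others were close together. The difference was -0.06 ± 0.13 (SE, limma, adjusted p = 0.812) with a 95% confidence interval of -0.36 to 0.24. That interval overlaps the -0.66 to -0.19 of Csf1r. Whether Mertk and Csf1r differed in their response was not tested.

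Msr1, a scavenger receptor for modified lipoproteins, had intensities of 666, 916 and 832 in Hmox1f/f PdgfraCre, against 1156, 1105 and 980 in Hmox1f/f. It was the one gene of the 7 that was lowest on array 1 and not on array 3, and its groups did not overlap. The mean was 9.64 ± 0.24 in Hmox1f/f PdgfraCre and 10.07 ± 0.12 in Hmox1f/f (log2, SD, n = 3 each), a difference of -0.43 ± 0.13 (SE, limma, adjusted p = 0.209).

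Marco, a related scavenger receptor for bacteria and particles, was dim. Its intensity was 106, 103 and 107 in Hmox1f/f PdgfraCre, against 119, 91 and 175 in Hmox1f/f. Only array 6 exceeded the filter, the genotypes overlapped, and no test was made. The means differed by -0.23 on the log2 scale, within the control SD of 0.47.

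**Figure D2:**
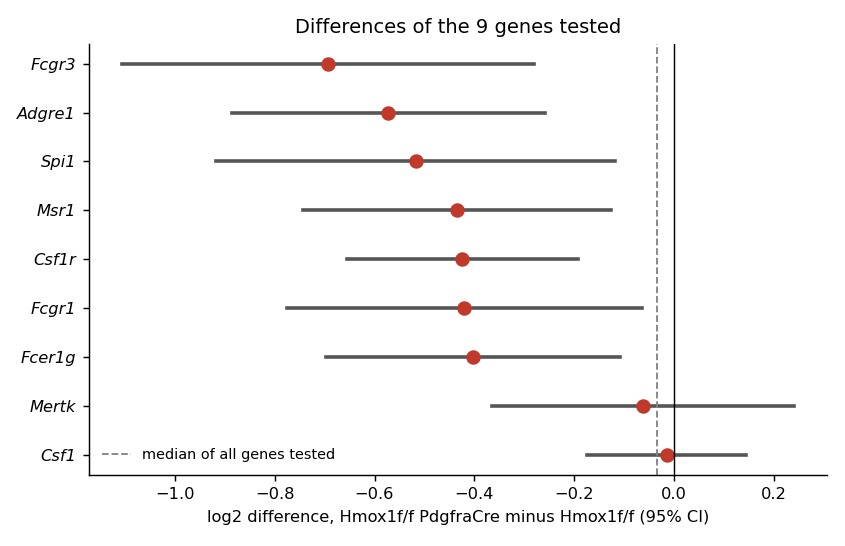
Log2 difference between genotypes for the 9 genes tested, Hmox1f/f PdgfraCre minus Hmox1f/f (points), with 95% confidence intervals from limma (lines) and the median of all genes tested (dashed line). Intervals of Fcgr3, Adgre1, Spi1, Msr1, Csf1r, Fcgr1 and Fcer1g lie below 0, and those of Mertk and Csf1 include 0.

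The order of the Cre arrays was similar, though not the same, among the 7 lower genes. Their mean log2 deviation from the Hmox1f/f mean was -0.54, -0.24 and -0.71 on arrays 1, 2 and 3 of Hmox1f/f PdgfraCre, against -0.01, -0.02 and 0.03 on arrays 4, 5 and 6 of Hmox1f/f. Array 2 was the highest Cre array for all 7, and array 3 the lowest for 6. The SD between pools was 0.15 to 0.36 in Hmox1f/f PdgfraCre and 0.05 to 0.18 in Hmox1f/f. The pool closest to the controls was thus the same for every one of them, and none of the 3 Cre pools reached the control mean for any.

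**Figure D3:**
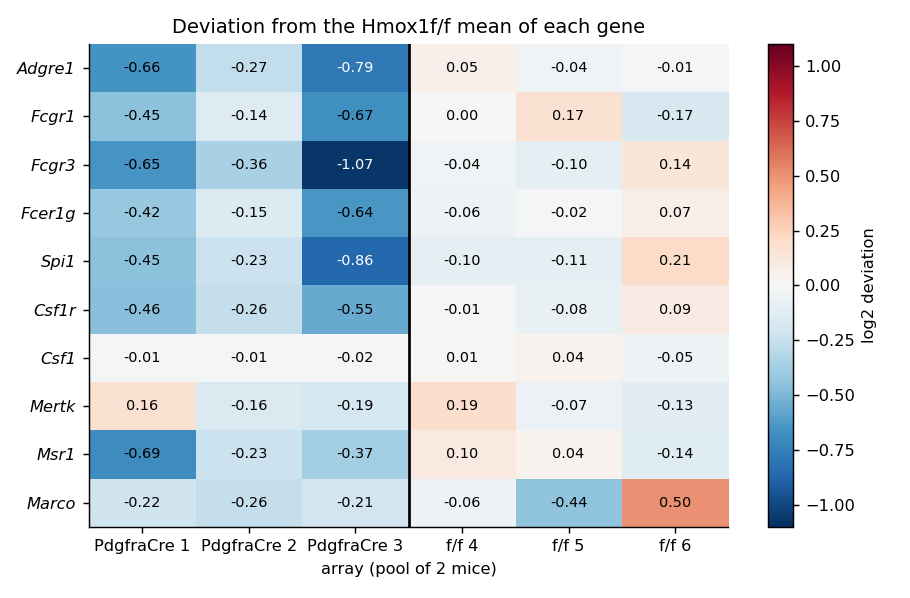
Log2 deviation of each gene on each array from that gene's Hmox1f/f mean, Hmox1f/f PdgfraCre arrays left of the line and Hmox1f/f arrays right of it, on a colour scale from blue (lower) to red (higher). Array 3 has the lowest value for Adgre1, Fcgr1, Fcgr3, Fcer1g, Spi1, Csf1r and Mertk, array 1 for Msr1, and the row of Csf1 is close to 0 throughout.

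Within the gene set, Fcgr3 was followed most closely by Fcer1g (Pearson r = 0.990 over 6 arrays, 0.974 after the genotype means were removed) and by Spi1 (r = 0.985, 0.977 within genotypes). Adgre1 and Csf1r had r = 0.968, or 0.853 within genotypes. Msr1 was looser, at r = 0.699 with Fcgr3 and 0.029 within genotypes. Csf1 had r = 0.037 with Csf1r. These values are descriptions over 6 arrays that share a normalization, and the genotype difference enters all but the within-genotype ones.

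The genes most like Adgre1 over the 6 arrays were Htr2b, Sting1, Mitf, Mfsd10 and Prmt2, with r of 0.998 to 0.999. Within genotypes their r was 0.993 to 0.997. Over the 6 arrays, 393 genes had r above 0.95. Htr2b, a serotonin receptor, had a difference of -0.85 ± 0.17 (SE), Sting1, an innate sensor of cyclic dinucleotides, -0.38 ± 0.10, and Mitf, a transcription factor of the PU.1 list, -0.34 ± 0.10. For Csf1, 6 genes had r above 0.95, and the 5 most like it were Copg1, Ermard, Cd34, Snx5 and Mdfic. Their r was 0.955 to 0.973, or 0.952 to 0.985 within genotypes, and their log2 differences were -0.07 to -0.03. All these genes were picked by a correlation that includes the genotype difference. A difference like that of Adgre1 or Csf1 therefore follows from the choice and is no separate result.

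Other genes of the same pathways were counted from lists named for their roles, and limma called 0 of them at an adjusted p of 0.05. Of 18 tested genes around Fc receptors and ITAM signalling, 18 were lower, 15 at an unadjusted p under 0.05 and 17 without overlap, with a median of -0.41. The shares of all genes against which these and the following counts stand are 13.8% lower and 3.82% higher at that threshold and 21.2% lower without overlap. The counts of lower genes in the scavenger, adhesion receptor and AP lists given below lie near the first of them. The count of higher genes in the adhesion receptor list, 3 of 10, lies above the second. The 3 with the smallest p were Btk, a kinase downstream of the motif (-0.49 ± 0.10, SE), Pirb, an inhibitory receptor (-0.57 ± 0.13), and Blnk, an adaptor (-0.55 ± 0.13). The 3 that did not pass the unadjusted threshold were Lcp2, Fcgr2b, the inhibitory IgG receptor, and Pilra, at -0.22 ± 0.10, -0.15 ± 0.07 and -0.15 ± 0.08.

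Of 17 tested partners of the CSF1 receptor, 6 were lower at an unadjusted p under 0.05 and 0 were higher, with a median of -0.18. Dok3 and Dok1, docking proteins that restrain tyrosine kinase signalling, had differences of -0.62 ± 0.12 and -0.45 ± 0.12 (SE), and Csf3r, the receptor of another colony-stimulating factor and a neutrophil marker, had -0.26 ± 0.09. Of the widely expressed adaptors and transcription factors, Cbl, Stat3, Stat5a and Gab2 lay between -0.01 and 0.02, Grb2 had -0.11 ± 0.09 and Sos1 had 0.16 ± 0.13. Of the rest, Pik3cg and Pik3cd had -0.29 ± 0.11 and -0.22 ± 0.08 without overlap. Csf2ra and Csf2rb had -0.18 ± 0.13 and -0.18 ± 0.11 with overlap. By any amount, 12 of the 17 were lower and 5 were higher (Sos1, Cblb, Il34, Gab2 and Stat5a).

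Of 15 tested factors that act with PU.1 or shape macrophages, 6 were lower at that threshold and 0 were higher, with a median of -0.14. Irf5, an interferon regulatory factor, had -0.52 ± 0.09 (SE), and the related factors Tfec and Mitf had -0.44 ± 0.12 and -0.34 ± 0.10. Maf, Klf4 and Runx1 lay between -0.02 and 0.01. Irf8 had -0.25 ± 0.08 without overlap, and Zeb2 had 0.19 ± 0.13 with overlap. By any amount, 12 of the 15 were lower and 3 were higher (Zeb2, Cebpa and Maf).

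Of 17 tested genes of the TAM receptors and of efferocytosis, the uptake of dying cells, 6 were lower at that threshold and 0 were higher, with a median of -0.11. Gas6, a ligand of MERTK and AXL, had a difference of -0.32 ± 0.09 (SE), Dock2 -0.27 ± 0.07 and Rac2, a blood-cell GTPase, -0.59 ± 0.18. The sister receptors had -0.24 ± 0.10 for Axl and -0.01 ± 0.11 for Tyro3, and the ligand Pros1 (protein S) had -0.12 ± 0.11.

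Of 14 other scavenger receptors tested, 3 were lower at that threshold, Stab1 (-0.40 ± 0.10, SE), Scarb2 (-0.23 ± 0.08) and Cd68 (-0.35 ± 0.14), and 0 were higher, with a median of -0.12. Cd163 and Mrc1, receptors of resident macrophages, had -0.02 ± 0.12 with overlap and -0.18 ± 0.08 without overlap of the genotypes. They were picked after their values were seen. Of 10 other adhesion G protein-coupled receptors, 2 were lower at that threshold, Adgrd1 (-0.29 ± 0.08) and Adgrg6 (-0.25 ± 0.09), and 3 were higher, Adgrf5 (0.46 ± 0.13), Adgrl4 (0.48 ± 0.14) and Adgrg1 (0.41 ± 0.16). The median of that list was 0.02.

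**Figure D4:**
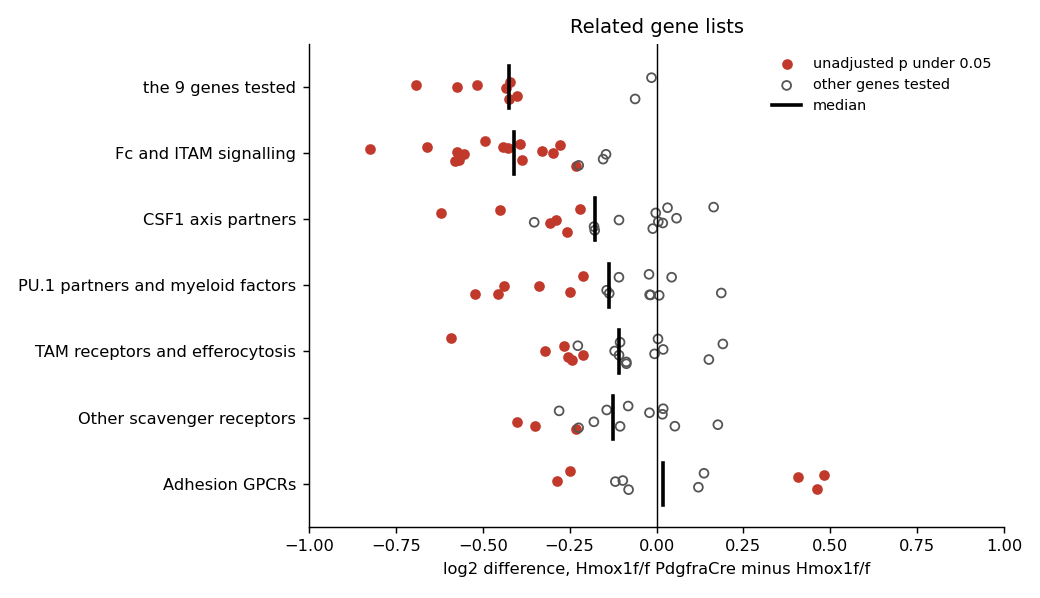
Log2 difference of the tested genes of each list, Hmox1f/f PdgfraCre minus Hmox1f/f, with filled points for an unadjusted p under 0.05 in limma, open points for the rest and a bar for the median. The Fc and ITAM list has a median of -0.41, close to the -0.42 of the 9 genes tested, and the other 5 lists plotted have medians nearer 0.

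Among markers of the cell types that the samples could hold, most of those of macrophages and mast cells were lower beside these genes. Of 4 tested dendritic cell markers, 2 were lower too, as given below. The 24 other macrophage markers, 23 of them tested, had 21 lower members and 2 higher ones (Ccr2 and Cd86), 16 lower at an unadjusted p under 0.05 and 0 higher, a median of -0.36, and a summed intensity of 54016 to 74175 in Hmox1f/f PdgfraCre, against 79926 to 83208 in Hmox1f/f. Cd14 (-0.68 ± 0.12, SE), Itgam (-0.65 ± 0.12) and C1qa (-0.58 ± 0.14) had the smallest p. The pan-leukocyte gene Ptprc (CD45) had log2 intensities of 10.06, 10.47 and 10.42 in Hmox1f/f PdgfraCre, against 10.57, 10.43 and 10.29 in Hmox1f/f, so RNA of this gene was present on all arrays. When each array was centred on the mean of those macrophage markers, the number of the 9 lower at an unadjusted p under 0.05 was 0 and their median was -0.057, while the median of all genes was 0.33 and 0.345% of all genes were lower at that threshold. Those markers were themselves lower, so the centring raised the difference of every gene by the same amount. It therefore cannot test the part of the macrophage markers in the results of single genes, and that part was not tested.

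Markers of mast cells, which also use the FcR gamma chain, had 5 tested of 9, all 5 lower and 4 at an unadjusted p under 0.05, at differences of -1.0 ± 0.20 for Tpsb2, -1.17 ± 0.26 for Mcpt4, -0.87 ± 0.20 for Cpa3, -0.80 ± 0.21 for Cma1 and -0.01 ± 0.10 for Kit (SE), with summed intensities of 1260 to 1870 in Hmox1f/f PdgfraCre and 2403 to 2808 in Hmox1f/f. Of the neutrophil markers 2 passed the filter, Csf3r and S100a8, and of the lymphocyte markers 2, Cd3e and Cd79b. The sums, which here and for the other lists take in all genes found, also those under the filter, were 576 to 636 and 980 to 1118 in Hmox1f/f PdgfraCre, against 619 to 650 and 926 to 1116 in Hmox1f/f. Dendritic cell sums were 1375 to 1542 in Hmox1f/f PdgfraCre, against 1548 to 1635 in Hmox1f/f, without overlap. Of 4 tested dendritic cell markers, Clec10a (-0.37 ± 0.11, SE) and Batf3 (-0.21 ± 0.08) were lower at an unadjusted p under 0.05. Zbtb46 and Cd209a had 0.15 ± 0.12 and 0.09 ± 0.10. Mesothelial sums were 2770 to 3102 in Hmox1f/f PdgfraCre, against 2794 to 3446 in Hmox1f/f. Of 12 tested AP markers 2 were lower at an unadjusted p under 0.05, Pi16 and Col3a1, and the sums were between 22268 and 23527 in Hmox1f/f PdgfraCre and between 22880 and 24187 in Hmox1f/f. Adipocyte sums were 81261 to 89554 in Hmox1f/f PdgfraCre, against 71989 to 80481 in Hmox1f/f, and endothelial sums were 8098 to 9421 in Hmox1f/f PdgfraCre, against 5871 to 7473 in Hmox1f/f, both without overlap. Of the tested members, 4 of 11 adipocyte markers (Pck1, Retn, Plin4 and Adipoq) and 6 of 9 endothelial markers were higher at an unadjusted p under 0.05. Of all genes, 3.82% were higher, and 0 of these markers were lower at that threshold. Their part in the results was not tested.

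With arrays 1 and 6, the highest in epididymal genes, left out, 5 of the 9 were lower at an unadjusted p under 0.05 where 4.12% of all genes were, the median was -0.37, and all 9 were lower without overlap on the 4 arrays left, as were 29.4% of all genes. Fcer1g and Spi1 then had unadjusted p of 0.0859 and 0.0810.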

How the data were processed

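Each array is represented by 1 intensity value per probeset, as deposited, on a linear scale. The submitters' processing notes name RMA, which corrects background, quantile-normalizes the arrays and combines the probes of a set, and Affymetrix Expression Console 1.1. Quantile normalization hides a shift shared by most genes. RMA compresses differences of dim probesets. The number of arrays, 3 per genotype, limits the precision.

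Of 35556 probesets, 21789 carried 1 symbol in the platform annotation, 1621 several and 12146 none here. For 999 genes with several probesets the one with the highest mean was used. The log2 values entered a limma 3.58.1 fit (R 4.3.3; lmFit, eBayes) with genotype as the only term and two-sided tests, on the 11024 genes with log2 above 7 in at least 3 arrays, and p-values were adjusted by Benjamini-Hochberg. The script was tested on simulated data. Each of the 10 genes has 1 probeset. Of 218 listed genes, 207 were found and 163 tested.

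The 10 genes, the 16 lists and the tests were chosen with earlier results of these data known. The genes named are all 10, Hmox1, Pdgfra, up to 3 per list with the smallest p, every gene of a list counted at 5 or fewer, and the 5 most correlated with Adgre1 and with Csf1, without predicted genes and small RNAs. For mesothelial and endothelial markers only sums or counts are given. Others were chosen after their values were seen, such as Il34, Ptprc and the sister receptors. Alternatives covered the filter, the normalization, the variance model, array weights, probeset averaging and leaving out arrays. Plots used matplotlib 3.10.9 (Python 3.11.15).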

Additional observations from a re-analysis of the deposited data

How the results depend on the processing

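With 3 pools per genotype, 0 genes passed an adjusted p of 0.05 in limma under any of the settings tried. The 7 lower genes kept their direction in all settings. Centring each array on the other macrophage markers left 0 of the 9 lower at an unadjusted p under 0.05, 2 without overlap of the genotypes and a median of -0.057, in a scaling that moved the median of all genes to 0.33. Csf1 changed sign to 0.35 there, to 0.0097 after a further quantile normalization and to 0.0030 after centring on array medians, and ranged between -0.042 and 0.0058 when single arrays were left out. Mertk changed sign to 0.31 under the macrophage centring and ranged between -0.17 and 0.034 when single arrays were left out, positive without array 3 or 4. Leaving out single arrays gave 6 to 7 members lower at an unadjusted p under 0.05, where 8.18% to 14.5% of all genes were, 6 to 8 lower without overlap, where 23.99% to 29.8% of all genes were, and medians between -0.53 and -0.34. The methods' own filter, with its demand for variation between arrays, removed Csf1. Moderating the variance over all genes before the filter, an alternative chosen after seeing the data, left 7 members lower. No paired analysis was possible because the replicate numbers do not recur between genotypes.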
